A study of Homo sapiens with 12 samples.

Results

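BCKDHB, ALDH6A1 and AASS encode mitochondrial enzymes that break down branched-chain amino acids and lysine. They were followed here as every probe set annotated to any of the 3 genes, which gave 6 of the 16376 probe sets and 3 of the 8545 genes measured. The genes were chosen with their values on these arrays in view, so their differences between groups are described below without a test. Each gene had 2 probe sets, and 0 of the 6 were shared with another gene.

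The 2 cell lines, SNB19 (labelled as glioblastoma) and SF539, are established human glioma lines, and both were transfected with siRNA in lipid and harvested at 48 h. Cells of each line received PARK2 siRNA#1, PARK2 siRNA#2 or a scramble siRNA, which made 6 groups of 2 arrays. All groups had been transfected, no untransfected sample was among the arrays, and a difference may therefore lie with the PARK2 siRNAs or with the scramble siRNA. PARK2 encodes parkin, a ubiquitin ligase that takes part in the clearance of damaged mitochondria. The extent of its knockdown was not analysed here. Whether replicates were separate cultures is not stated in the labels, and the p-values below then reflect only the spread between these arrays, which may be technical.

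Branched-chain amino acids lose their amino group to a transaminase, and the keto acids are then committed to oxidation by the branched-chain keto acid dehydrogenase complex. BCKDHB is the beta subunit of the decarboxylase component of that complex. ALDH6A1, methylmalonate semialdehyde dehydrogenase, acts late in valine breakdown and releases propionyl-CoA. AASS, aminoadipic semialdehyde synthase, carries out the opening steps of lysine breakdown through saccharopine. In glioma the best known gene of these pathways is BCAT1, the cytosolic transaminase.

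The upstream sequences are shown because the CCAAT box was the only motif searched that matched in all 3 genes. It is marked because of those matches, so it gives no separate support for grouping the genes. Each stretch holds the 250 bases before the annotated start, 5′ to 3′ on the strand of the gene, from RefSeq on GRCh38.p14. Capitals mark the CCAAT box, which reads ATTGG where it lies on the opposite strand. BCKDHB lies at chr6:80106421-80106670 on the plus strand, ALDH6A1 at chr14:74084454-74084703 on the minus strand and AASS at chr7:122144250-122144499 on the minus strand.
BCKDHB: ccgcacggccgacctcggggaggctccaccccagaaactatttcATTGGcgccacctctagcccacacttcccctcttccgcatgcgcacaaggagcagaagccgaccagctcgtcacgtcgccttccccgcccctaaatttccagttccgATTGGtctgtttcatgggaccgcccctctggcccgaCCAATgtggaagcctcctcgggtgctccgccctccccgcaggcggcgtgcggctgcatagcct
ALDH6A1: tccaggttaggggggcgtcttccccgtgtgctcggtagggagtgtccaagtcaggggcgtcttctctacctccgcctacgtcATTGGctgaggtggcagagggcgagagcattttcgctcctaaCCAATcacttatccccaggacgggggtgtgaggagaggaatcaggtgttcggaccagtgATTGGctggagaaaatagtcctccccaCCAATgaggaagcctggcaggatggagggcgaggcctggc
AASS: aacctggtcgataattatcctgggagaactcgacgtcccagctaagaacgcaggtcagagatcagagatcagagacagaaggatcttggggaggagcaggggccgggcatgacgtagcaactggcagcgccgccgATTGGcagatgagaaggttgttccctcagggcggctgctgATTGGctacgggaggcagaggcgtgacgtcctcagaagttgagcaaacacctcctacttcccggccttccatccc

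BCKDHB had 3 CCAAT matches over both strands, ALDH6A1 had 4 and AASS had 2. Among 35116 promoters of the same length, 32% held at least 1 match, 9.53% at least 2, 2.93% at least 3 and 0.874% at least 4. Among the 10360 of these that belong to genes on the array, the shares were 33.1%, 10.7%, 3.51% and 1.2%. The GC box GGGCGG matched 3 times in BCKDHB, 0 times in ALDH6A1 and once in AASS, and 42.6% of promoters held at least 1 (55.9% for array genes). The CACCC box CCACCC matched only in BCKDHB (31.3% of promoters), as did ACGTG, the core of the hypoxia response element (18.5%). No stretch of the 3 held the E-box CACGTG (6.34% of promoters), the amino acid response element TGATGNAA (3.14%), the interferon response element, a pair of GAAA repeats with 2 bases between them (3.02%) or the TATA box TATAAA (10.7%). Every E-box contains ACGTG, and none of the other motifs contains another. The motifs were chosen with results of these arrays known, and a match describes letters in this window only. The shares above are per promoter, and the 3 genes were read from 1 promoter each. For the medians that follow, a gene took the highest count over all its listed promoters. Of the 6832 array genes with a promoter, the 1018 with 2 or more CCAAT matches had a median log2 change with the PARK2 siRNAs of 0.01 in SNB19, against -0.01 over all 6832. In SF539 these medians were -0.00 and -0.01.

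**Figure D1:**
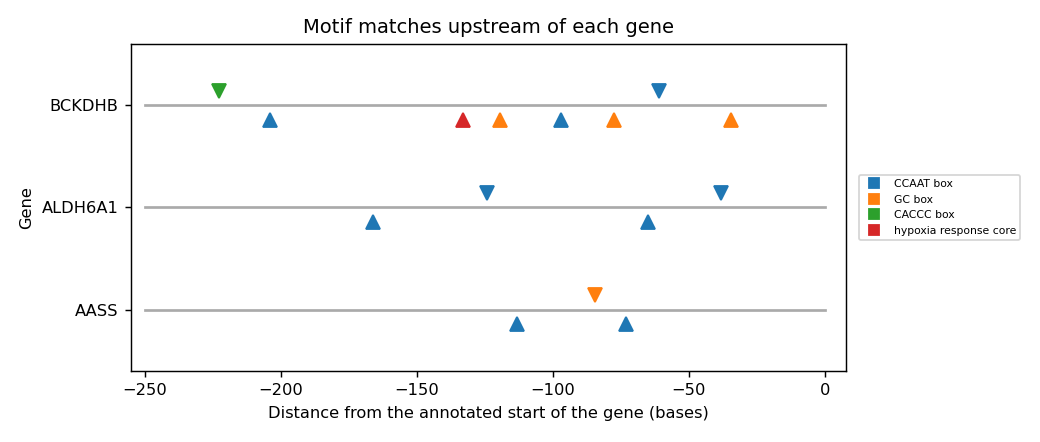
Motif matches in the 250 bases upstream of BCKDHB, ALDH6A1 and AASS, by distance in bases from the annotated start; markers above a line lie on the strand of the gene and those below on the opposite strand. The CCAAT box occurs 3, 4 and 2 times, and the GC box occurs in BCKDHB and AASS but not in ALDH6A1.

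The array values were on the log2 scale, from 2.01 to 14.1, with array medians of 5.94 to 6.14 and lower quartiles of 3.93 to 4.02. Replicate arrays correlated across probe sets with r from 0.991 to 0.998, and probe sets are not independent replicates. The median SD between replicates was 0.132 with siRNA#2 in SF539 and 0.0616 to 0.0852 in the other groups. In bulk RNA, fewer cells of a type and less RNA per cell cannot be told apart. The mesenchymal glioma markers VIM and CD44 were high in both lines, at 13.35 to 13.65 and 11.9 to 12.7. SOX2 lay at 9.09 to 9.62 in SNB19 but at 4.38 to 4.97 in SF539, and EGFR at 6.93 to 7.32 and 7.82 to 8.43. SF539 lay near or below the lower quartile of the arrays for GFAP, S100B and FABP7 (2.79 to 4.10 together), and both lines lay below it for OLIG2 (3.28 to 3.76). PTPRC of leukocytes, EPCAM and CDH1 of epithelium and TEK of endothelium lay between 2.33 and 3.25 on every array, below the lower quartile. Other members of these lists lay above it, with CD3E and LCK at 4.49 to 5.43 and PECAM1 and VWF at 4.80 to 6.18. KRT8 and KRT5 did too, at 4.65 to 6.14, and CD14, CDH5, KDR and KRT19 ranged across it, from 2.81 to 6.12. Of the marker lists, 0 of 4 leukocyte, 2 of 5 endothelial (VWF by 0.52 and KDR by 0.99) and 1 of 5 epithelial genes (KRT19 by 1.26) rose in SNB19 with the PARK2 siRNAs (limma adjusted p from 6.93e-05 to 0.00208), and 0 leukocyte genes had an unadjusted p under 0.05. Of all genes 15.5% were called higher in SNB19 and 32.8% in either direction, and lists this short cannot be told from those shares. The summed linear level of the endothelial list in SNB19 was 145.2 to 172.4 with the PARK2 siRNAs and 107.6 to 115.1 with scramble, that of the epithelial list 121.2 to 138.6 and 92.2 to 113.9, and that of the leukocyte list 84.4 to 90.3 and 78.1 to 88.0. Among glial genes, GFAP rose by 3.58, FABP7 by 1.33 and S100B by 1.00 in SNB19 (limma adjusted p = 1.53e-07, 0.00024 and 0.000641), SOX2 was lower by a log2 change of -0.41 (adjusted p = 0.0457), and the summed linear level of that list was 23831 to 26717 with the PARK2 siRNAs and 18867 to 19836 with scramble. In SF539 CD44 changed by -0.31 and KRT8 by -0.37 (limma adjusted p = 0.0492 and 0.0187), and no other marker was called, against 9.82% of all genes called in that line. There the glial list summed to 14968 to 18402 with the PARK2 siRNAs and 18579 to 19376 with scramble, the endothelial list to 106.3 to 141.4 and 113.4 to 124.8, the epithelial list to 101.0 to 120.5 and 123.8 to 127.0, and the leukocyte list to 80.9 to 88.4 and 79.3 to 89.8. VIM and CD44, the highest genes of the glial list on every array, made up most of its sum in both lines. The glial sum in SF539 therefore says little about GFAP, S100B and FABP7 there. The part of these markers in the results below was not tested.

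BCKDHB, by probe set 213321_at, the brighter of its probe sets over all arrays, was higher with each PARK2 siRNA than with scramble in both lines. In SNB19 its log2 level was 8.02 and 7.91 with siRNA#1, 7.94 and 7.95 with siRNA#2, and 7.29 and 7.33 with scramble. In SF539 it was 7.00 and 7.02 with siRNA#1, 7.26 and 7.11 with siRNA#2, and 6.46 and 6.54 with scramble. All 4 PARK2 siRNA arrays of a line lay above both of its scramble arrays. The log2 difference of the mean of both siRNAs from scramble was 0.65 ± 0.07 in SNB19, or 1.57-fold, and 0.60 ± 0.07 in SF539, or 1.51-fold (SE of the limma fit, 4 arrays against 2). Over all genes the median log2 difference was -0.01 in SNB19 and -0.02 in SF539.

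The other BCKDHB probe set, 210653_s_at, the dimmer over all arrays but the brighter on every SF539 array, differed from scramble in opposite directions in the 2 lines. In SF539 its log2 level was 7.57 and 7.70 with siRNA#1, 7.65 and 7.42 with siRNA#2, and 7.16 and 7.17 with scramble. In SNB19 it was 6.61 and 6.54 with siRNA#1, 6.70 and 6.59 with siRNA#2, and 6.92 and 6.79 with scramble. All 4 PARK2 siRNA arrays lay above both scramble arrays in SF539 and below both in SNB19. The log2 difference was 0.42 ± 0.09 in SF539 and -0.25 ± 0.09 in SNB19. The direction given for BCKDHB in SNB19 therefore belongs to 213321_at and not to the gene as a whole, and the mean of both probe sets differed by 0.20 there and by 0.51 in SF539. Which transcripts each probe set reads was not analysed here.

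ALDH6A1, by probe set 204290_s_at, was also higher with both siRNAs in both lines. In SNB19 its log2 level was 6.38 and 6.42 with siRNA#1, 6.53 and 6.35 with siRNA#2, and 5.76 and 5.82 with scramble. In SF539 it was 6.86 on both arrays with siRNA#1, 6.86 and 6.95 with siRNA#2, and 6.16 and 6.22 with scramble. In neither line did a PARK2 siRNA array overlap scramble. The log2 difference was 0.63 ± 0.08 in SNB19, or 1.55-fold, and 0.69 ± 0.08 in SF539, or 1.62-fold. The other ALDH6A1 probe set, 204289_at, lay between 3.13 and 3.60 on all 12 arrays, below the lower quartile of every array, and differed by -0.02 and 0.09. With so little signal it gives no direction, and the mean of both probe sets differed by 0.30 in SNB19 and 0.39 in SF539.

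AASS had the widest spread of the 3 genes, and in SF539 it rested on 1 scramble array. Probe set 214829_at had a log2 level in SNB19 of 6.39 and 6.53 with siRNA#1, 6.51 and 6.38 with siRNA#2, and 5.77 and 5.90 with scramble. In SF539 it was 5.80 and 5.57 with siRNA#1, 6.11 and 5.73 with siRNA#2, and 4.33 and 5.72 with scramble. In SNB19 no PARK2 siRNA array overlapped scramble, whereas in SF539 scramble replicate 2 lay above siRNA#1 replicate 2. The log2 difference was 0.62 ± 0.30 in SNB19, or 1.53-fold, and 0.78 ± 0.30 in SF539, or 1.72-fold. Its SE comes from the spread over both lines, and it was 0.08 in SNB19 when the arrays of that line were fitted alone. Without SF539 scramble replicate 1 the difference in SF539 was 0.09, and without scramble replicate 2 it was 1.47.

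The other AASS probe set, 210852_s_at, was higher with the PARK2 siRNAs on every array of both lines. In SNB19 its log2 level was 6.20 and 6.15 with siRNA#1, 6.27 and 6.08 with siRNA#2, and 5.65 and 5.51 with scramble. In SF539 it was 5.48 and 5.47 with siRNA#1, 5.70 and 5.57 with siRNA#2, and 4.86 and 5.24 with scramble. No PARK2 siRNA array overlapped scramble in its own line. The log2 difference was 0.59 ± 0.11 in SNB19 and 0.50 ± 0.11 in SF539, and scramble replicate 1 was again the lower of the SF539 scramble arrays.

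**Figure D2:**
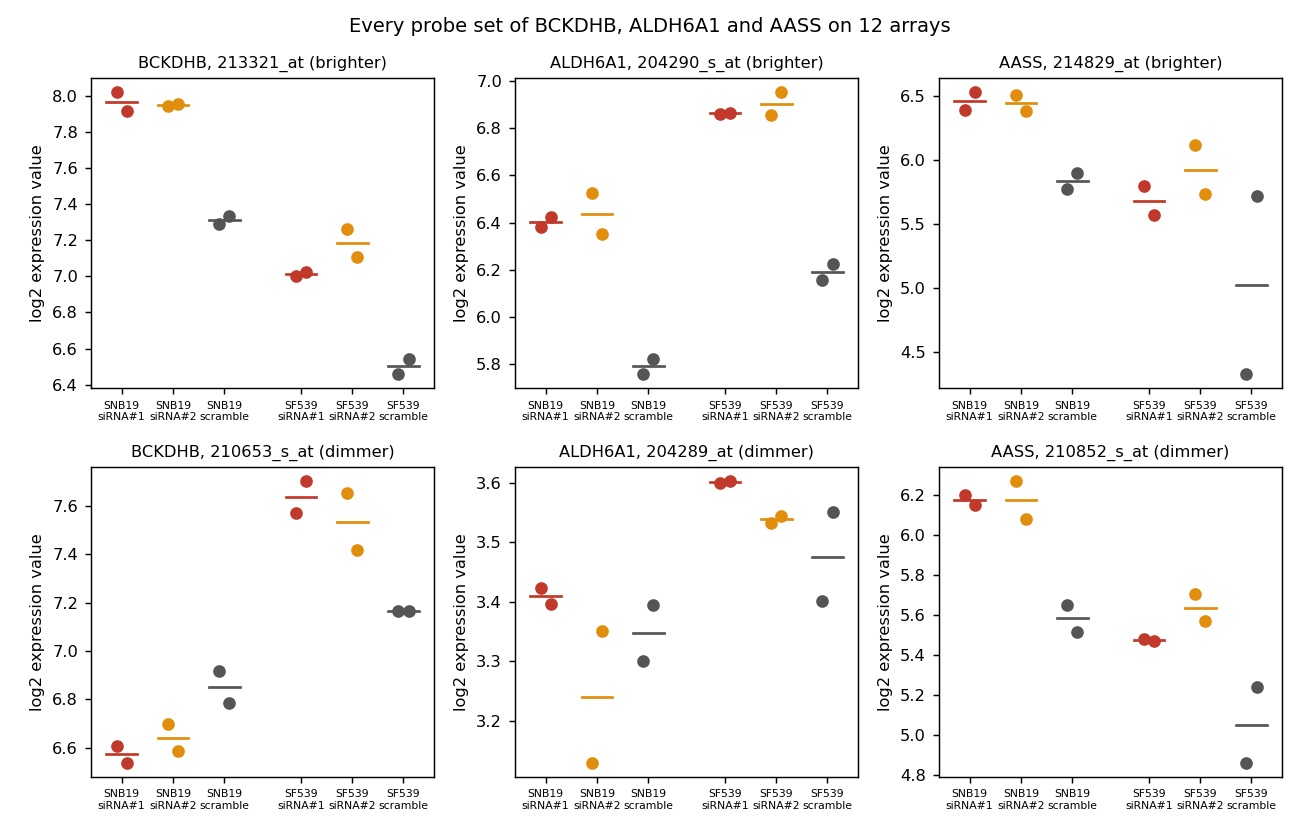
The log2 expression value on each of the 12 arrays for both probe sets of BCKDHB, ALDH6A1 and AASS, named brighter and dimmer by their mean over all arrays, with points for arrays and lines for the means of 2. All 4 PARK2 siRNA arrays of a line lie above scramble for the brighter probe sets except AASS in SF539, and the dimmer BCKDHB probe set lies below scramble in SNB19 only.

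By the brightest probe set of each gene, the PARK2 siRNA arrays lay above both scramble arrays for 3 of the 3 genes in SNB19 and 2 of 3 in SF539, against 24.2% and 13.7% of all genes tested. Both lines showed this for 2 of 3 genes, against 6.02% of all genes. In the limma fit 15.5% of all genes were called higher in SNB19 and 5.8% in SF539, and no call is given for the 3 genes. The counts of arrays without overlap follow from how the genes were chosen, and nothing is read from them. In SNB19 461 of the 8545 genes had a larger positive difference than BCKDHB, 475 than ALDH6A1 and 491 than AASS. In SF539 these numbers were 291, 214 and 180. The 3 genes are of middling brightness, with means over all arrays at percentiles 54.3, 46.3 and 41.3 of the genes.

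Each siRNA was also set on its own against the scramble arrays of its line, which both siRNAs share. The values here are by the brighter probe set of each gene. By its dimmer probe set BCKDHB was below scramble with each siRNA in SNB19. BCKDHB had a log2 difference of 0.66 with siRNA#1 and 0.64 with siRNA#2 in SNB19, and of 0.51 and 0.68 in SF539. For ALDH6A1 these were 0.61 and 0.65 in SNB19 and 0.67 and 0.71 in SF539. For AASS they were 0.63 and 0.61 in SNB19 and 0.66 and 0.90 in SF539, and the 0.66 became -0.03 without SF539 scramble replicate 1. The log2 difference of siRNA#2 from siRNA#1 was between -0.02 and 0.04 for the 3 genes in SNB19. In SF539 it was 0.17 ± 0.09 for BCKDHB, 0.04 ± 0.09 for ALDH6A1 and 0.24 ± 0.34 for AASS.

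**Figure D3:**
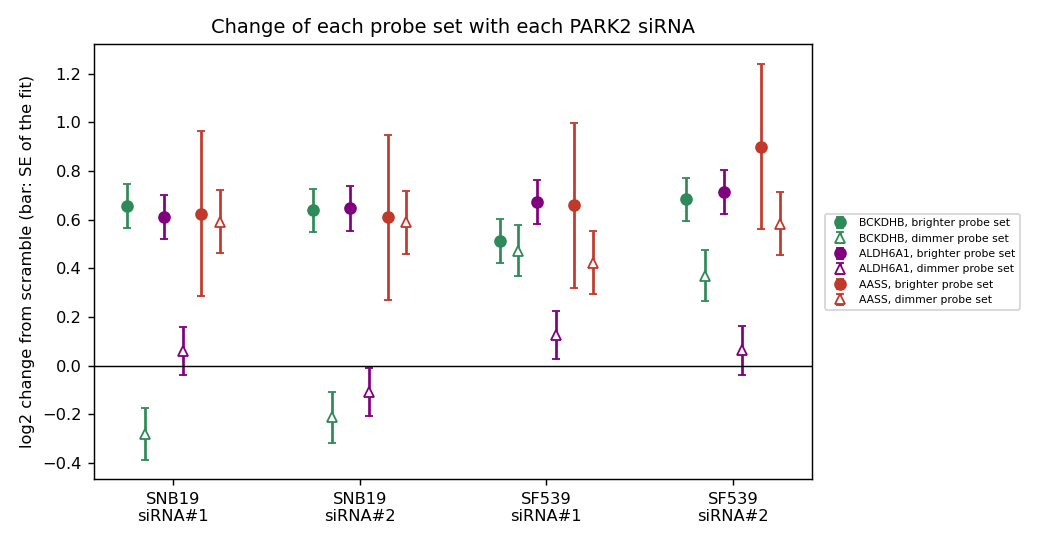
The log2 change from scramble of each probe set with each PARK2 siRNA in each line, with SE of the limma fit as bars; filled circles are the brighter and open triangles the dimmer probe set of each gene. The brighter probe sets lie between 0.51 and 0.90, and the dimmer BCKDHB probe set lies at -0.28 and -0.21 in SNB19 but at 0.47 and 0.37 in SF539.

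Between the lines, BCKDHB and ALDH6A1 by their brighter probe sets differed more in their scramble level than in their response. With scramble, the log2 level in SF539 minus SNB19 was -0.81 ± 0.09 for BCKDHB by its brighter probe set and 0.31 ± 0.11 by the dimmer one. ALDH6A1 differed by 0.40 ± 0.09 and AASS by -0.81 ± 0.34. By the dimmer BCKDHB probe set the response to the PARK2 siRNAs in SF539 minus that in SNB19 was 0.67 ± 0.13. That exceeded its scramble difference. By the brighter probe sets the response difference was -0.05 ± 0.10 for BCKDHB, 0.06 ± 0.11 for ALDH6A1 and 0.16 ± 0.42 for AASS. Median centring made the BCKDHB value -0.22 and the ALDH6A1 value -0.11, and quantile normalization made them -0.15 and -0.10. For AASS the value was -0.53 without SF539 scramble replicate 1, so its response in the 2 lines could not be compared closely.

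Ordered by mean level of the brighter probe set, the groups fell differently for each gene. BCKDHB was highest in SNB19 with siRNA#1 and siRNA#2 (7.97 ± 0.07 and 7.95 ± 0.01, SD, n = 2 each), which overlapped, then in SNB19 with scramble (7.31 ± 0.03). SF539 followed with siRNA#2, siRNA#1 and scramble (7.18 ± 0.11, 7.01 ± 0.02 and 6.50 ± 0.06), with no overlap between neighbours. ALDH6A1 ran the other way between lines, with SF539 siRNA#2 and siRNA#1 on top, SNB19 siRNA#2 and siRNA#1 next, then SF539 scramble and last SNB19 scramble. Its siRNA pairs overlapped within each line and the other neighbours did not. AASS was highest in the SNB19 siRNA groups, which overlapped each other, and below them the remaining 4 groups each overlapped the next. By its dimmer probe set AASS had the same order, but SF539 siRNA#1 overlapped neither SNB19 scramble above it nor SF539 scramble below it. For BCKDHB the dimmer probe set put SF539 with siRNA#1, siRNA#2 and scramble on top (7.64, 7.54 and 7.17). SNB19 with scramble, siRNA#2 and siRNA#1 followed (6.85, 6.64 and 6.57).

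The genes closest in pattern were found by the root mean square difference of the log2 change over the 8 PARK2 siRNA arrays, each taken from the scramble mean of its line, among 6408 genes. Each gene was read by its brightest probe set, so the neighbours given for BCKDHB are those of 213321_at. For BCKDHB the nearest were FBXO21, an F-box protein gene of ubiquitin ligases, at 0.0707, AHCYL1, a regulator of the inositol trisphosphate receptor, at 0.0944, VAT1 at 0.0953, the Mediator kinase gene CDK19 at 0.111 and ALDH6A1 at 0.120. For ALDH6A1 they were POFUT1, which adds fucose to Notch receptors, at 0.112, BCKDHB at 0.120, FBXO21 at 0.123, BABAM2 at 0.126 and AHCYL1 at 0.148. For AASS they were ALDH6A1 at 0.166, BCKDHB at 0.171, FBXO21 at 0.189, CBR4 at 0.204 and AHCYL1 at 0.209. FBXO21 and AHCYL1 were thus among the nearest 5 of all 3 genes, and AASS was 22nd nearest to BCKDHB and 9th nearest to ALDH6A1. The 4 arrays of a line share its scramble mean, and the 3 genes had been chosen together with their values in view.

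The other genes of branched-chain and lysine breakdown and of electron transfer from its dehydrogenases came from lists compiled from general knowledge of the pathways. These lists were drawn up with earlier results of these data known, so their shares below are not independent of these data. Of the listed genes 29 were measured. In SNB19 11 of the 29 rose with the PARK2 siRNAs and 2 fell, 44.8% in all against 32.8% of all genes, with a median log2 change of 0.20 against -0.01. In SF539 8 of 29 rose and 0 fell, 27.6% against 9.82% of all genes, with a median of 0.21 against -0.02. At an unadjusted p under 0.05 in limma, 12 rose and 0 fell in SF539. The SNB19 count of 13 became 6 without SNB19 scramble replicate 1 and 4 without replicate 2. The SF539 count of 8 became 5 and 3 without SF539 scramble replicates 1 and 2, 3 and 4 without siRNA#1 replicates 1 and 2, 5 without each SNB19 siRNA array, and 1 in a fit of the SF539 arrays alone, where BCAT2 kept its call and the other genes had adjusted p from 0.0624 to 0.218. Without SF539 siRNA#2 replicate 1 there were 9 higher and 2 lower in SF539. With every other amino acid added, 18 of 55 genes rose and 8 fell in SNB19, and 10 rose and 1 fell in SF539.

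At the steps shared by leucine, isoleucine and valine, where BCKDHB acts, both transaminases passed the test in at least one line. BCAT1 fell by 0.83 ± 0.08 in SNB19 (limma adjusted p = 2.59e-05), with means of 6.52 with siRNA#1, 6.64 with siRNA#2 and 7.41 with scramble, and differed by 0.12 in SF539 (adjusted p = 0.354). BCAT2, the mitochondrial transaminase, rose by 0.78 ± 0.08 in SF539 (adjusted p = 0.000365), with means of 7.70, 8.26 and 7.20 in the same order, and by 0.29 ± 0.08 in SNB19 (adjusted p = 0.0159). The SNB19 call of BCAT2 was lost without SNB19 scramble replicate 1 or 2 or siRNA#1 replicate 1 (adjusted p from 0.0514 to 0.124). The response differed between lines by 0.96 ± 0.11 for BCAT1 (adjusted p = 0.000234) and by 0.49 ± 0.11 for BCAT2 (adjusted p = 0.0112, and 0.0607 without SNB19 scramble replicate 1). The BCAT2 difference was 0.057 by the mean of its probe sets (adjusted p = 0.753) and 0.32 with median centring (0.0639), and its SF539 change was 0.33 by the mean of probe sets. The partners of BCKDHB in the complex did not pass the test for the mean of both siRNAs, with BCKDHA, the alpha subunit, at 0.23 in SNB19 (0.52 with siRNA#1, adjusted p = 0.0264, and -0.07 with siRNA#2) and 0.41 in SF539, DBT, the acyltransferase core, at 0.06 and 0.29, and DLD, the lipoamide dehydrogenase, at 0.08 and 0.11. BCKDK, the kinase that inhibits the complex, was at 0.20 and 0.29 and also not called. These 4 genes were named for their place beside BCKDHB after their values were seen. At an unadjusted p under 0.05 in limma, 3 of the 7 measured genes of the shared steps rose in SF539 and 0 fell, BCAT2 being among the 3. In SNB19 1 rose and 1 fell at that threshold.

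In the leucine branch OXCT1, which passes coenzyme A to ketone bodies, rose by 1.16 ± 0.10 in SNB19 (adjusted p = 1.58e-05), with means of 9.71 with siRNA#1, 9.67 with siRNA#2 and 8.53 with scramble. In SF539 it rose by 0.38 ± 0.10 (limma adjusted p = 0.036), but was not called with quantile normalization (0.0509), median centring (0.0669) or array weights (0.0677). That call was lost without either SNB19 scramble array, any SNB19 siRNA array, SF539 scramble replicate 2 or either SF539 siRNA#1 array (adjusted p from 0.0557 to 0.236). MCCC2, a subunit of methylcrotonyl-CoA carboxylase, and AUH, the methylglutaconyl-CoA hydratase, rose by 0.37 and 0.29 in SNB19 (adjusted p = 0.0398 and 0.0292). Without SNB19 scramble replicate 2 these reached adjusted p = 0.234 and 0.149, and without replicate 1 0.0917 and 0.112. By the mean of probe sets MCCC2 changed by 0.16 (adjusted p = 0.277), and it was not called with quantile normalization (0.0574). MCCC2 also lost its call without any 1 of the 4 SNB19 siRNA arrays (0.0566 to 0.103) and AUH without siRNA#1 replicate 1 or siRNA#2 replicate 1 (0.0815 and 0.0855).

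Along the isoleucine and valine branch, which holds ALDH6A1, ACADSB, the short branched-chain acyl-CoA dehydrogenase, rose by 1.02 ± 0.11 in SNB19 (adjusted p = 6.06e-05), with means of 6.12 with siRNA#1, 6.58 with siRNA#2 and 5.33 with scramble. In SF539 it differed by 0.21 (adjusted p = 0.26), and the response differed between lines by -0.82 ± 0.15 (adjusted p = 0.00438). HADH, a hydroxyacyl-CoA dehydrogenase, rose by 0.51 ± 0.08 in SNB19 (adjusted p = 0.000665). In SF539 HADH rose by 0.28 ± 0.08 with an adjusted p of 0.0498, a call lost in 17 alternatives, among them leaving out any SNB19 array, either SF539 scramble array or either SF539 siRNA#1 array (0.0746 to 0.209), and its change was 0.14 by the mean of probe sets (0.353). HIBCH, the hydrolase a few steps ahead of ALDH6A1 in valine breakdown, rose by 0.40 ± 0.11 in SNB19 (adjusted p = 0.0171, and 0.14 and 0.0523 without SNB19 scramble replicates 1 and 2) and differed by -0.01 in SF539.

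Propionyl-CoA, the product of ALDH6A1, enters a branch of which 3 of the 6 listed genes were measured. All 3 rose in SF539, where 5.8% of all genes were called higher. There PCCA and PCCB, the subunits of propionyl-CoA carboxylase, rose by 0.49 ± 0.10 and 0.43 ± 0.08 and MMUT, methylmalonyl-CoA mutase, by 0.50 ± 0.07 (limma adjusted p = 0.0166, 0.00883 and 0.0031). PCCA lost its call without SF539 scramble replicate 2 (0.12) or siRNA#1 replicate 1 (0.0532), and PCCB without scramble replicate 2 (0.0663). By the mean of probe sets PCCA changed by 0.25 in SF539 and 0.20 in SNB19 and was called in neither (adjusted p = 0.0777 and 0.0802). With array weights PCCA was not called in SF539 (limma adjusted p = 0.0638). In SNB19 PCCA and PCCB rose by 0.34 ± 0.10 and 0.33 ± 0.08 (adjusted p = 0.0267 and 0.00876), and MMUT differed by 0.14 (adjusted p = 0.167). PCCA lost the SNB19 call without scramble replicate 1 or 2, siRNA#1 replicate 1 or siRNA#2 replicate 2 (0.0727 to 0.151), and PCCB without scramble replicate 2 (0.0843).

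Among lysine genes, ALDH7A1, the dehydrogenase that follows AASS, rose by 0.50 ± 0.11 in SNB19 (limma adjusted p = 0.00695) and by 0.47 ± 0.11 in SF539 (adjusted p = 0.0278). Its means were 10.13 with siRNA#1, 10.26 with siRNA#2 and 9.69 with scramble in SNB19, and 9.71, 9.90 and 9.33 in SF539. The SNB19 call was lost without scramble replicate 2 (0.0697), and the SF539 call without either SF539 scramble array or either siRNA#1 array (0.0707 to 0.133). GCDH, glutaryl-CoA dehydrogenase, rose by 0.56 ± 0.13 in SNB19 (adjusted p = 0.00866, and 0.0556 and 0.061 without SNB19 scramble replicates 1 and 2) and differed by 0.03 in SF539. DLST, a core subunit of the oxoglutarate dehydrogenase complex, fell by 0.31 ± 0.09 in SNB19 (adjusted p = 0.0235), a call lost without scramble replicate 1 or 2, siRNA#1 replicate 2 or siRNA#2 replicate 1 (0.066 to 0.165) and with median centring (a change of -0.19, 0.132). DHTKD1, which acts on oxoadipate, rose by 0.39 ± 0.09 in SF539 (adjusted p = 0.0317), a call lost without any SNB19 siRNA array, either SF539 scramble array or either siRNA#1 array (0.0554 to 0.181). Of the 3 genes of electron transfer from these dehydrogenases, ETFA, ETFB and ETFDH, limma called 0 in either line, and 0 at an unadjusted p under 0.05, with log2 differences between -0.20 and 0.22.

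With siRNA#1 alone 8 of the 29 pathway genes rose in SNB19 and 2 fell, and with siRNA#2 alone 7 rose and 1 fell. These calls are 34.5% and 27.6% of the list, against 26.1% and 29.7% of all genes. In SF539 BCAT2, PCCB and MMUT rose with siRNA#1 and 6 genes rose with siRNA#2, which are 10.3% and 20.7% of the list against 2.73% and 15.2% of all genes. limma called 0 lower in SF539 with either siRNA, and at an unadjusted p under 0.05 there were 0 with siRNA#1 and 2 with siRNA#2. The siRNA#1 count in SF539 was 0 without any 1 of the SF539 scramble or siRNA#1 arrays, 1 without either SNB19 siRNA#2 array and 9 without either SF539 siRNA#2 array. In SNB19 that count of 10 was 4 or 5 without any 1 of the SNB19 scramble or siRNA#1 arrays and 16 without either SF539 siRNA#2 array. The siRNA#2 count of 6 in SF539 was 3 without SF539 scramble replicate 2 and 10 without siRNA#2 replicate 2. Without siRNA#2 replicate 1 it was 11, of which 6 were higher and 5 lower. For siRNA#2 in SNB19 the count of 8 was 5 without SNB19 scramble replicate 2, 4 without siRNA#2 replicate 2 and 14 without either SF539 siRNA#2 array.

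Set directly against each other, the siRNAs differed in 2 of the 29 genes in SNB19 and 1 in SF539, which are 6.9% and 3.45% against 6.06% and 2.72% of all genes. BCKDHA, the partner of BCKDHB, had SNB19 means of 8.50 with siRNA#2, 9.09 with siRNA#1 and 8.57 with scramble, and siRNA#2 minus siRNA#1 was -0.59 (limma adjusted p = 0.0471). DHTKD1 differed by -0.45 (adjusted p = 0.0434). Without any 1 of the SNB19 arrays or of the SF539 siRNA#1 arrays the count of 2 was 0, without either SF539 scramble array it was 1, and without either SF539 siRNA#2 array it was 4. In SF539 BCAT2 was higher with siRNA#2 than with siRNA#1 by 0.56 (adjusted p = 0.0183). The count of 1 there was 0 without either SF539 siRNA#1 array and 2 without siRNA#2 replicate 2. Without siRNA#2 replicate 1 it was 14, of which 3 were higher and 11 lower.

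Between the lines, the response of 5 of the 29 genes differed, 17.2% against 19.1% of all genes, with 3 higher and 2 lower in SF539. With median centring these were 1 and 6, and without SF539 siRNA#2 replicates 1 and 2 they were 4 and 7, and 4 and 4. With scramble 15 of 29 differed, 51.7% against 49.3% of all genes.

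**Figure D4:**
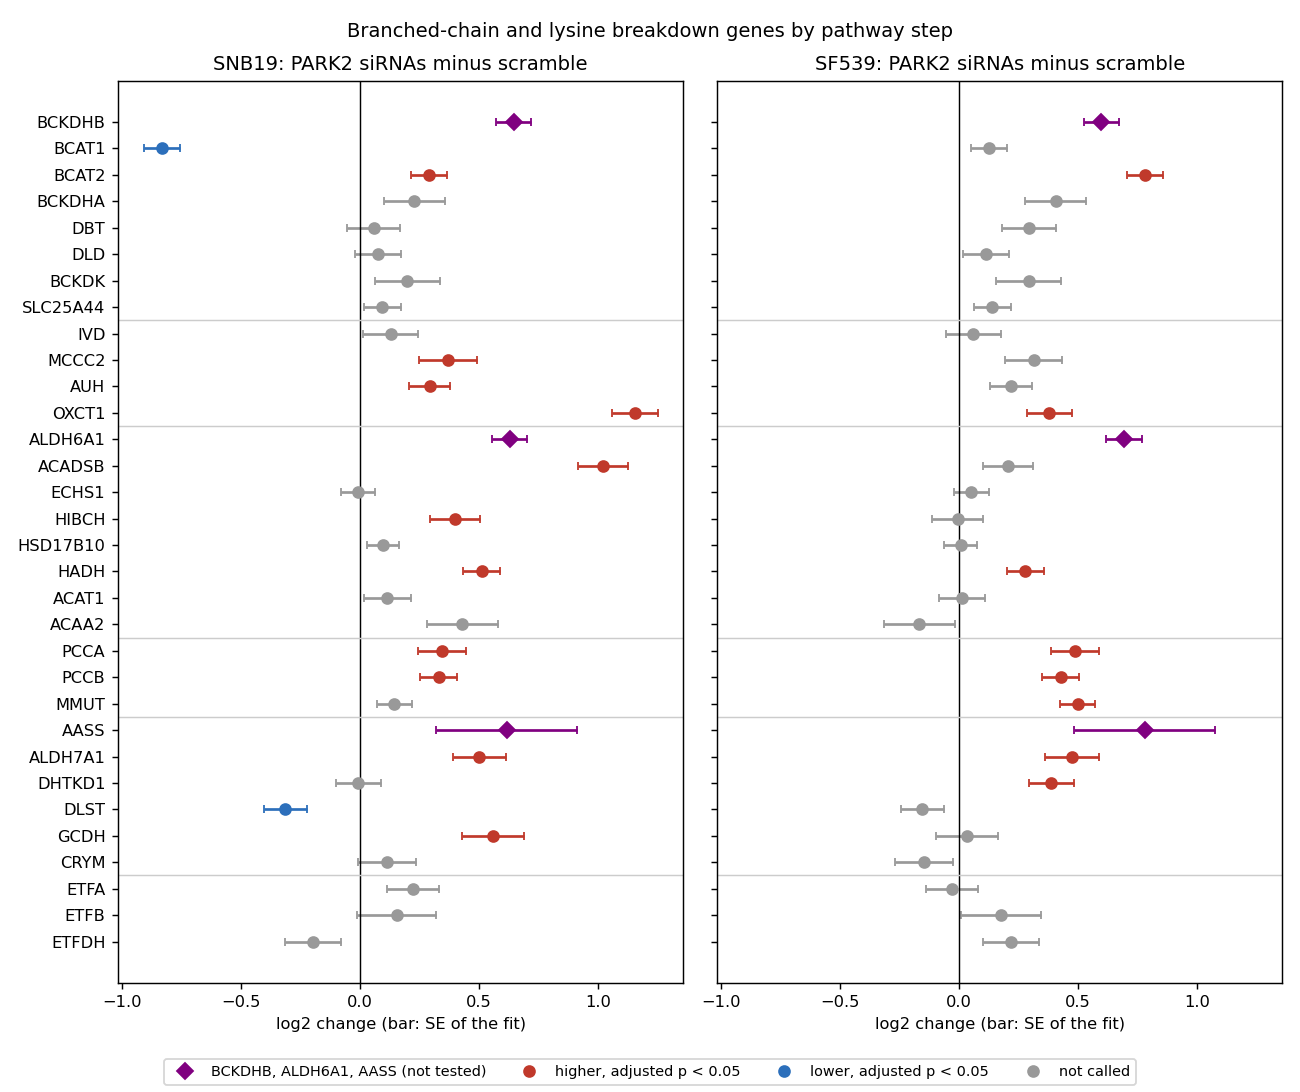
The log2 change with the PARK2 siRNAs from scramble of BCKDHB, ALDH6A1, AASS and 29 further pathway genes in SNB19 and in SF539, grouped from top to bottom into common branched-chain, leucine, isoleucine and valine, propionate, lysine and electron transfer genes; bars are SE of the limma fit. In SNB19 11 of the 29 are called higher and 2 lower, and in SF539 8 are called higher and 0 lower.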

How the data were processed

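Biotin-labelled total RNA from SNB19 and SF539 was hybridised to 12 Affymetrix arrays, per the labels. The authors deposited log2 values per probe set, made with Partek per the submitters' processing notes. How background and normalization were handled is not given in the sources used here. The values carry no detection call, so changes of probe sets near the lower quartile are bounded by background.

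Of 16376 probe sets, 14038 had 1 gene, 792 several and 1546 none. Symbols of 14028 were matched to RefSeq (GRCh38.p14). A gene took the value of its brightest probe set. A 6-group model was fitted to all arrays and genes with limma 3.58.1 (R 4.3.3, degrees of freedom 6 residual and 3.65 prior) with two-sided tests, calling a Benjamini-Hochberg adjusted p under 0.05, and checked on simulated data. Errors of differences are standard errors of that fit.

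The 3 genes and all lists were chosen with earlier results of these data known. Named pathway genes are up to 4 per list with the smallest p among those called in either line. Alternatives were a replicate block, quantile normalization, median centring, other probe set summaries, the dimmest 40% left out, a trended robust prior, array weights, 1 line alone and each array left out, which assumes that the lone partner varies as the other groups do. After output was seen, the pathway count used for alternatives was changed from 55 to 29 genes, and a reversal of a described value was limited to values over 2 SE from 0. Shares of non-overlapping genes and CCAAT medians were also added then. Plots used matplotlib 3.10.9.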

Additional observations from a re-analysis of the deposited data

Results flagged for a closer look

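The pathway genes below responded differently to the PARK2 siRNAs in the 2 lines, by the limma test of SF539 minus SNB19 in the log2 change. BCAT1 (0.96), BCAT2 (0.49), MMUT (0.35), OAT (0.67) and SDHA (0.56) had the higher change in SF539. OXCT1 (-0.78), ACADSB (-0.82), GCSH (-1.40), ALDH5A1 (-0.91), AHCY (-0.77) and SDHC (-0.52) had the higher change in SNB19. Adjusted p ran from 1.52e-05 for GCSH to 0.0392 for MMUT. The call of MMUT was lost without any SNB19 array, either SF539 scramble array or siRNA#1 replicate 2 (adjusted p from 0.0576 to 0.125), that of BCAT2 without SNB19 scramble replicate 1 (0.0607), and that of SDHC without SNB19 scramble replicate 1 or 2 or SF539 scramble replicate 1 (0.0511 to 0.0762). Median centring also ended the calls of MMUT (0.18, adjusted p = 0.239), BCAT2 (0.32, 0.0639) and SDHA (0.39, 0.0747). By the mean of probe sets BCAT2 was 0.057 (0.753) and ALDH5A1 was -0.52. The call of SDHA was lost without SNB19 scramble replicate 1 or 2, SNB19 siRNA#1 or siRNA#2 replicate 2, SF539 scramble replicate 2 or SF539 siRNA#1 replicate 2 (0.0527 to 0.114). GCSH has near-identical pseudogene copies, which may contribute to its signal.

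The dimmer BCKDHB probe set 210653_s_at was higher on all 4 PARK2 siRNA arrays than on both scramble arrays in SF539 and lower on all 4 in SNB19. Its response differed between the lines by 0.67 ± 0.13, and this difference was not tested.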

How the results depend on the processing

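For BCKDHB the log2 difference in SNB19 was 0.77 after median centring, 0.20 by the mean of probe sets and -0.25 by the dimmer probe set (-0.28 with siRNA#1 and -0.21 with siRNA#2 alone), and in SF539 it was 0.51 by the mean and 0.42 by the dimmer probe set. By that probe set the lines with scramble differed by 0.31 instead of -0.81. For ALDH6A1 it was 0.75 after quantile normalization, 0.76 after centring, 0.30 by the mean and -0.023 by the dimmer probe set in SNB19 (-0.11 with siRNA#2 alone), and 0.39 and 0.094 in SF539. Leaving out an array gave BCKDHB 0.62 to 0.67 in SNB19 and 0.56 to 0.64 in SF539, ALDH6A1 0.58 to 0.67 and 0.66 to 0.73, and AASS 0.55 to 0.68 and 0.086 to 1.47.

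Of the 29 pathway genes the counts called moved by over 1.5 times as follows. For the mean of siRNAs in SF539 (8) the count was 4 with array weights and 1 for SF539 alone. For siRNA#1 in SF539 (3) these were 5 and 0, and for siRNA#2 (6) they were 2 and 3. For siRNA#1 in SNB19 (10) it was 16 with centring, 16 with weights and 17 for SNB19 alone, and for siRNA#2 (8) it was 17, 15 and 14. For siRNA#2 against siRNA#1 in SF539 (1) it was 0 by the mean of probe sets, 2 without dim genes, 2 with a trended prior, 0 with weights and 0 alone, and in SNB19 (2) it was 1 with centring, 7 with weights, 0 for every probe set on its own and 4 alone. Leaving out an array gave 4 to 16 and 3 to 12 for the mean of siRNAs in SNB19 and SF539, 4 to 16 and 0 to 9 for siRNA#1, 4 to 14 and 3 to 11 for siRNA#2, 0 to 4 and 0 to 14 for siRNA#2 against siRNA#1, 3 to 11 for the difference in response and 11 to 17 for the lines with scramble. The cause of these moves was not tested. With median centring the all-gene median in SNB19 was 0.12, and the higher share of calls there was 68.3%, against 47.1%, and in SF539 46.0%, against 59.1%.

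Replicate differences correlated between groups, within and across the lines, at -0.18 to 0.11, so no large effect shared by replicate number was seen. Whether replicates were paired is not stated in the labels, and these correlations cannot settle it. With a replicate block the pathway count was 14 in SNB19, 7 in SF539 and 0 for siRNA#2 against siRNA#1 in SNB19. Of 45 calls of named genes in 3 comparisons, 20 were kept in every alternative and 27 in every one that left out no array. BCAT2 had an adjusted p of 0.753 for the difference between lines by the mean of probe sets. The number of arrays and the signal over background limit the precision.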

Other observations

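Breakdown of other amino acids moved in both directions in SNB19, where 7 of 26 measured genes rose and 6 fell, 50% of the list against 32.8% of all genes, with a median log2 change of 0.06. GCSH, the lipoate carrier of the glycine cleavage system, rose by 1.38 ± 0.07 (limma adjusted p = 6.2e-07), with near-identical pseudogene copies that may share its signal. ALDH5A1, which oxidises succinic semialdehyde from GABA, rose by 1.32 ± 0.12 (adjusted p = 2.48e-05, and 0.80 by the mean of its probe sets), and AHCY, which hydrolyses adenosylhomocysteine, by 0.94 ± 0.09 (adjusted p = 3.55e-05). OAT, ornithine aminotransferase, fell by 0.58 ± 0.08 (adjusted p = 0.000321). In SF539 2 of the 26 rose and 1 fell, 11.5% against 9.82% of all genes. ARG2, the mitochondrial arginase, rose by 1.92 ± 0.33 (adjusted p = 0.00706, and 0.0544 without SF539 scramble replicate 2, with a change of 1.17 by the mean of probe sets), with 5.65 and 7.28 on the siRNA#2 arrays, 4.47 and 4.64 with siRNA#1 and 3.66 and 3.51 with scramble, so its scramble level lay below the lower quartile of the arrays. TDO2, which opens tryptophan breakdown, rose by 0.56 ± 0.14 (limma adjusted p = 0.0359). Its call was lost with a replicate block (0.0529), quantile normalization (0.05) and array weights (0.0533). Leaving out either SNB19 scramble array, either SNB19 siRNA#1 array, either SF539 scramble array or either SF539 siRNA#1 array also ended it. KYNU, the kynureninase, fell by 0.96 ± 0.19 in SF539 (adjusted p = 0.0131, and 0.0761 and 0.081 without SF539 scramble replicates 1 and 2) and by 1.00 ± 0.19 in SNB19 (adjusted p = 0.00283).

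Of 11 citric acid cycle genes, 2 rose and 2 fell in SNB19 and 0 rose and 1 fell in SF539, which are 36.4% and 9.09% against 32.8% and 9.82% of all genes. SDHC and SUCLG2 rose in SNB19 by 0.60 and 0.53 (limma adjusted p = 0.000607 and 0.000942). IDH3A, a subunit of isocitrate dehydrogenase, fell by 0.49 in SNB19 (adjusted p = 0.00179) and by 0.38 in SF539 (adjusted p = 0.0247, lost without either SF539 scramble array or either siRNA#1 array, 0.0605 to 0.127). SDHA fell by 0.32 in SNB19 (adjusted p = 0.0397), a call lost without either scramble array, siRNA#1 replicate 2, either siRNA#2 array or either SF539 siRNA#1 array (0.0559 to 0.244) and with median centring (a change of -0.19, 0.173).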
